A study of Homo sapiens with 31 samples.

Results

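C13* cells with an shRNA against CEBPB were compared with the A2780 parent line. All 8 libraries labelled C13* shCEBPB and all 8 labelled A2780 were used, 16 of the 31 libraries of the series, on the 12234 of 19221 genes that reached 1 FPKM in 8 or more of these 16 libraries. FPKM are fragments on a gene scaled by the length of the gene and by the fragments of the library. The study used C13*, a cisplatin-resistant cell line, as ovarian cancer cells, but calls this use somewhat improper given the origin of the line. It also cites A2780 as an unlikely line of high-grade serous ovarian cancer by its genomic profile. The name shCEBPB stands for an shRNA against CEBPB delivered by lentivirus. A2780 is an ovarian cancer cell line that carried no shRNA and served as the parent of an olaparib-resistant derivative, A2780 OlaR (n = 8). A control shRNA in C13* (shCON, n = 7) makes up the fourth group. Both groups compared were kept in RPMI-1640 with 10% foetal bovine serum, and no label gives olaparib, an inhibitor of PARP, for either. Cell line, shRNA and lentivirus differed together between them, so that their parts in any difference cannot be told apart. The methods call the libraries biological replicates of each line, so p-values measure the spread between cultures of 1 line and not between lines.

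C/EBPβ, the product of CEBPB, is a basic leucine zipper transcription factor that binds DNA as a homodimer or as a heterodimer with other C/EBP and bZIP proteins. It acts in acute-phase, inflammatory and differentiation programmes, and the stress-induced family member DDIT3 (CHOP) dimerizes with it. Ovarian carcinoma lines differ widely in lineage, from epithelial cells rich in keratins to cells with a mesenchymal profile, and in the state of homologous recombination (HR), the repair pathway whose loss makes cells sensitive to PARP inhibitors.

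The profiles went against the labels. The groups were compared over the 13125 genes whose mean FPKM reached 1 in at least 1 of the 4 groups. The means of shCON and A2780 OlaR, different lines by their labels, differed at least 2-fold for 0.526% of these genes. The means of shCEBPB and shCON, the same line by their labels, differed at least 2-fold for 27.6%, and those of A2780 and A2780 OlaR, parent and derivative, for 34.6%. The share was 36.9% between shCEBPB and A2780, 27.2% between shCEBPB and A2780 OlaR, and 34.4% between shCON and A2780. Across these genes Pearson's r of the group means was 0.99 for shCON and A2780 OlaR and between 0.72 and 0.80 for the other 5 pairs of groups, and r between libraries within a group was at least 0.98. A single shCON library also has A2780 as its cell line in 1 label field. Which cells each library held cannot be told from these values, and shCEBPB and A2780 below mean the libraries with those labels. The relative depth, estimated from the increments between low FPKM values, ranged from 0.894 to 1.11 over the shCEBPB libraries and from 0.856 to 1.15 over the A2780 libraries. The libraries numbered 1 to 3 and 4 to 8 did not overlap for 49.1% of the genes tested within shCEBPB and for 19.9% within A2780. The p-values below take no account of such sets and treat the libraries of a group as independent.

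CEBPB, on chromosome 20 from 50190830 to 50192668 of hg38 in a gene with 1 exon, was the targeted gene and was expressed in every library. Its FPKM in shCEBPB replicates 1 to 8 were 42.1, 41, 30.2, 51.4, 52.3, 47.7, 58.7 and 53.8, and in A2780 replicates 1 to 8 they were 106, 111, 97.8, 102, 97.7, 102, 95.3 and 85.6. Every shCEBPB library was below every A2780 library. The mean was 47.1 ± 9.05 (SD, n = 8) against 99.7 ± 7.63 (SD, n = 8). On the log2 scale the difference was -1.09 with a standard error of 0.10 and an adjusted p of 6.95e-09 from limma, and the exact permutation test (two-sided) gave p = 0.000155, the smallest value that 12870 splits of 8 against 8 libraries allow. In shCON the mean was 85.8 ± 9.93 (SD, n = 7) and in A2780 OlaR 112 ± 11.6 (SD, n = 8), both above the shCEBPB mean. The difference was larger in the libraries numbered 1 to 3 (log2 fold change -1.47) than in those numbered 4 to 8 (-0.86). An antisense gene, CEBPB-AS1, overlaps the exon, and whether counting used the strand is not stated.

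Fold changes here and below are shCEBPB minus A2780 on log2(FPKM + 1), which understates the change of genes near 0, and a gene is said to be higher or lower only at an adjusted p under 0.05 in limma over all 12234 genes (two-sided, Benjamini-Hochberg). Among the 219 genes named in the text that passed, the largest adjusted p was 0.0237 and standard errors were at most 0.208. Wherever the 8 and 8 libraries did not overlap, the exact permutation p was 0.000155. A gene below 1 FPKM in every library of 1 group passed the filter only through the other group. The direction of such a gene was set by the filter, also where it is counted in a list.

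The other C/EBP genes did not follow CEBPB as a group. DDIT3, which encodes CHOP, lay at 5.96 to 7.46 FPKM, median 6.66, in shCEBPB and 79.1 to 88.4 FPKM, median 84.3, in A2780, the largest difference of the family (log2 fold change -3.46). CEBPG, a short family member without an activation domain, was at 9.88 to 13.7 FPKM, median 12.2, against 68.7 to 76.9 FPKM, median 72.4 (log2 fold change -2.49). For both, A2780 stood above the other groups, whose means were at most 19.9 FPKM for CEBPG (shCON) and 17.9 FPKM for DDIT3 (A2780 OlaR). CEBPA, a factor of myeloid and liver differentiation, was higher in shCEBPB, 10.2 to 27.1 FPKM, median 18.6, against 4.8 to 6.79 FPKM, median 5.99. CEBPZ, a family relative by name only, was higher by 0.39 on the log2 scale. CEBPD did not pass (log2 fold change -0.08, 95% interval -0.22 to 0.05, adjusted p = 0.23), and its libraries overlapped. CEBPE was below 1 FPKM in every library and was not tested.

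**Figure D1:**
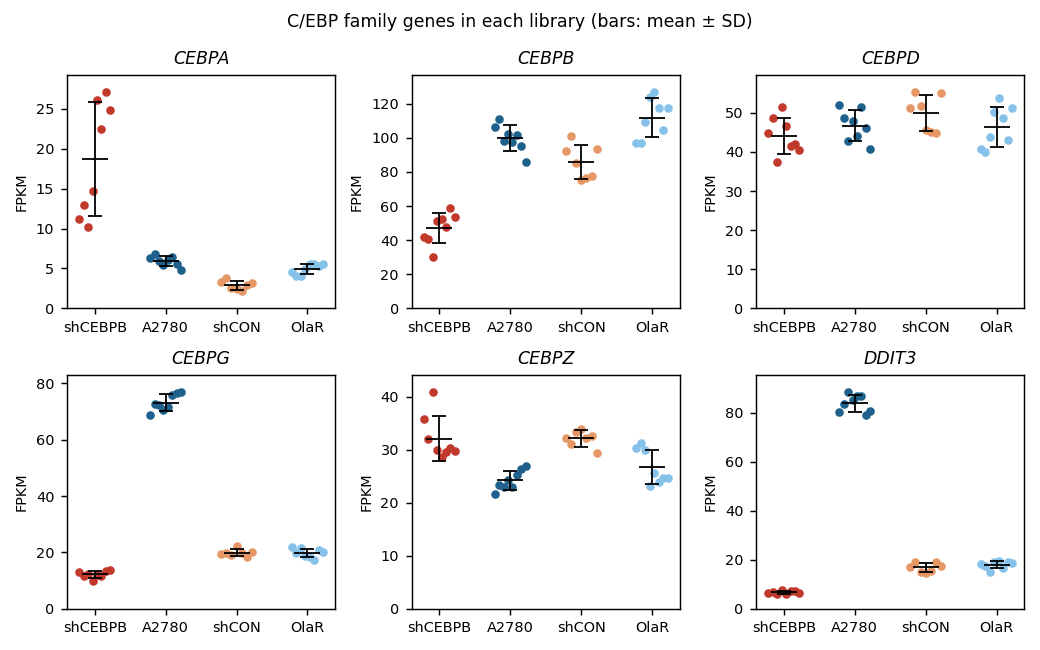
FPKM of 6 C/EBP family genes (y axis, linear from 0) in each library of the 4 labelled groups (x axis), with bars at the mean ± SD. CEBPB sat lowest in the 8 shCEBPB libraries, at 30.2 to 58.7, while CEBPG and DDIT3 stood high in the 8 A2780 libraries.

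AP-1 and related bZIP factors, which can pair or compete with C/EBP proteins, were split. Of 25 tested, 9 were higher and 15 lower in shCEBPB, with a median log2 fold change of -0.67 against -0.18 over all genes tested. Of all genes tested, 37.4% were higher and 51.5% lower. FOS (132 against 8.51 FPKM as means), JUNB (139 against 25.2) and MAFK (68.4 against 20.5) were the most raised. ATF2, ATF4 and NFE2L1 were the most lowered, ATF4, the translation-controlled factor of the amino acid response, from 337 to 117 FPKM.

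Most genes differed. Of the 12234 genes tested, 10877 (88.9%) passed the test, 4581 (37.4%) higher and 6296 (51.5%) lower in shCEBPB, and over all genes the median log2 fold change was -0.18. At a fold of at least 2 there were 4710 (38.5%), of which 1892 (15.5%) were higher and 2818 (23%) lower. The 8 and 8 libraries did not overlap for 8845 genes (72.3%), 3620 (29.6%) higher and 5225 (42.7%) lower in shCEBPB. These shares are the background against which each gene group is read, and a list count near them does not set the list apart. With 8 libraries a side the test reached small changes: 2597 of the genes that passed had a 95% interval within 1.5-fold in both directions. The median moved to between -0.22 and -0.00 when libraries were rescaled or corrected for GC content and length, so a small list median near 0 has no fixed sign.

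At the other end, 718 genes were at least 4-fold higher and 978 at least 4-fold lower, and 93 and 69 passed 32-fold. Ranked by fold change, the rises began with ASS1, the argininosuccinate synthase of the urea cycle and of arginine synthesis, at 1290.1 to 1595 FPKM, median 1525, in shCEBPB and at most 0.328 FPKM in A2780. KRT7, a keratin of simple epithelia, followed at 492 to 636 FPKM, median 603, against at most 0.173 FPKM, and CGA, the shared alpha subunit of the glycoprotein hormones, at 387 to 734 FPKM, median 558, against at most 0.407 FPKM. None of these 3 overlapped between the groups, and their log2 fold changes were 10.32, 9.1 and 8.85. CGA was listed at 0 in all shCON and all A2780 OlaR libraries, and so was ALPL, the tissue-nonspecific alkaline phosphatase, which lay at 421 to 635 FPKM, median 579, in shCEBPB and 0.933 to 1.46 FPKM, median 1.35, in A2780. The related phosphatases ALPP (194 against 1.01 FPKM) and ALPI (165 FPKM, at most 0.0436 in A2780) were also higher, but they and ALPPL2 are near-identical copies on chromosome 2 between which reads could be split. ALPPL2 went the other way, with means of 8.29 and 24 FPKM.

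Among the remaining top rises, WISP2 (CCN5), a secreted matricellular protein, had a mean of 457 FPKM against at most 0.098 in A2780, and MUC13, a membrane mucin, 229 against at most 0.00971. The protease inhibitor SPINK5, the serine protease PRSS21, the adhesion molecule MCAM, the purine transporter SLC43A3 and the calcium-binding S100P had means of 209.7, 202, 169.6, 156 and 209 FPKM in shCEBPB, all against less than 1 FPKM in every A2780 library. In these 5 genes the shCON mean was 6.36 FPKM or less. GPX1, the main cytosolic glutathione peroxidase, lay at 214 to 350.1 FPKM, median 312, in shCEBPB and at most 1.09 FPKM in A2780, while shCON (mean 415 FPKM) and A2780 OlaR (419) stood above both. BASP1, a membrane-bound signalling protein, had means of 401 FPKM in shCEBPB, 178 in shCON and 0.904 in A2780.

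MFGE8, the secreted milk fat globule protein that bridges apoptotic cells to integrins, led the falls. It lay at 1.16 to 2.49 FPKM, median 1.91, in shCEBPB and 2801 to 3364 FPKM, median 3133, in A2780, a log2 fold change of -10.11. HAPLN3, a hyaluronan link protein whose gene lies next to it on chromosome 15 (HAPLN3 from 88877294 to 88895597, MFGE8 from 88898683 to 88913468), was among the 15 largest falls too, at most 0.0879 against 193 to 258 FPKM, median 234. ALDH1A1, the retinaldehyde dehydrogenase often used as a stem cell marker, was listed at 0 in all 8 shCEBPB libraries and lay at 998 to 1127 FPKM, median 1053, in A2780. So were MMP10 (stromelysin 2, 783 to 899.8 FPKM, median 817, in A2780), GALC, the lysosomal galactosylceramidase (393 to 464 FPKM, median 417), and GJA1, the gap junction protein connexin 43 (181 to 211 FPKM, median 194). In the other groups GJA1 had means of 27.9 FPKM (shCON) and 22.6 FPKM (A2780 OlaR), and the means of the other 3 genes were at most 5.74 FPKM (GALC in A2780 OlaR).

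MMP1, the interstitial collagenase, was at most 0.0242 FPKM in shCEBPB and 516 to 603 FPKM, median 535, in A2780 (log2 fold change -9.08), and MMP3 was listed at 0 in all shCEBPB libraries against 78.5 to 97.8 FPKM, median 83.1. The 3 metalloproteinase genes lie together on chromosome 11, between 102770502 and 102843609. A further neighbouring pair, COL3A1 (188974373 to 189012746) and COL5A2 (189031898 to 189225312) on chromosome 2, encodes fibrillar collagen chains, with at most 0.0207 and 0.0491 FPKM in shCEBPB against 317 to 373 FPKM, median 364, and 417 to 439 FPKM, median 432, in A2780. ANKRD1, a nuclear ankyrin repeat protein, MAP2, a microtubule protein of neurons, UCHL1, a neuronal deubiquitinase, TAGLN, an actin-binding protein of smooth muscle, and HGF, the ligand of MET, were also among the 15 largest falls. Their A2780 means were 643, 228, 239.7, 357 and 185 FPKM, and none exceeded 1.15 FPKM in any shCEBPB library.

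**Figure D2:**
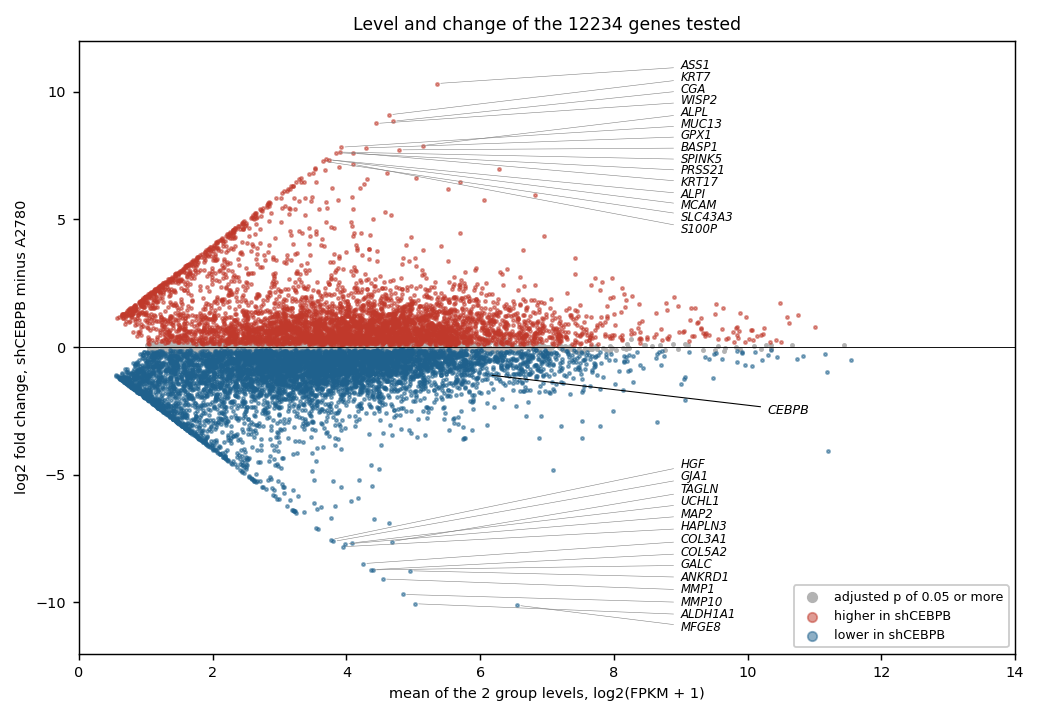
Mean level of each tested gene over the 2 groups, log2(FPKM + 1) (x axis), against its log2 fold change, shCEBPB minus A2780 (y axis), with CEBPB and those of the 15 largest rises and 15 largest falls that are described here named. ASS1 tops the plot at 10.32 and MFGE8 ends it at -10.11, and the straight edges are genes near 0 FPKM in 1 of the 2 groups.

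Promoter sequence was looked up for the 30 genes with the largest changes, since they include genes that are on in 1 group and off in the other. RefSeq promoters (GRCh38.p14) gave 1 entry for 16 of the 30, and in 6 of these the 250 bases before the start held no annotated exon. All 6 are shown, 4 of them rises (CGA, MUC13, MCAM and S100P) and 2 falls, 5′ to 3′ on the gene's strand, with capitals for 3 sets of bZIP letters searched on both strands, the C/EBP letters TTGCNNAA, the AP-1 letters TGANTCA and the CRE letters TGACGTCA. CGA is at chr6:87095107-87095356, MUC13 at chr3:124934752-124935001, MCAM at chr11:119317131-119317380, MMP10 at chr11:102780629-102780878 and ANKRD1 at chr10:90921088-90921337, all on the minus strand, and S100P is at chr4:6693628-6693877 on the plus strand.
CGA: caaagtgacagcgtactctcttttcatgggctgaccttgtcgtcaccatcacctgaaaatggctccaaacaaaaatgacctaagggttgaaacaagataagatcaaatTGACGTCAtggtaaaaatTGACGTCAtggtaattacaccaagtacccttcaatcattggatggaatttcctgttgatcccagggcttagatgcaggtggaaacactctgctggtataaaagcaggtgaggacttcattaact
MUC13: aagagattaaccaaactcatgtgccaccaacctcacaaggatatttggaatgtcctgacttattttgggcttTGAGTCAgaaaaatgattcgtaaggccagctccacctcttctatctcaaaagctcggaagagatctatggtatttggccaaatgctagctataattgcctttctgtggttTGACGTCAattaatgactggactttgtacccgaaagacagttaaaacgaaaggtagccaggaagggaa
MCAM: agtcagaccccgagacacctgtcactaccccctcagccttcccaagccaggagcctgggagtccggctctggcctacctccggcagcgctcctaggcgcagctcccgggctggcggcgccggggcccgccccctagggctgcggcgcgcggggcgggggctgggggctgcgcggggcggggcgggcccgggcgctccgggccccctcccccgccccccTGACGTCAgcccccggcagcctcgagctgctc
S100P: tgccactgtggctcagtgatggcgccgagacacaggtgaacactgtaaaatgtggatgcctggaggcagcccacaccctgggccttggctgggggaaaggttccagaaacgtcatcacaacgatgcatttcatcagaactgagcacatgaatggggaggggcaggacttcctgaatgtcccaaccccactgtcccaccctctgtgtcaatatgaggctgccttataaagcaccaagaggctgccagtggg
MMP10: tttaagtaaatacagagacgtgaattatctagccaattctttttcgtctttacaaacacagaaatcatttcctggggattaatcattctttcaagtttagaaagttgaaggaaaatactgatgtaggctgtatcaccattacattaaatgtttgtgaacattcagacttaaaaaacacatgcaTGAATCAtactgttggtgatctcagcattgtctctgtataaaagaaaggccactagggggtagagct
ANKRD1: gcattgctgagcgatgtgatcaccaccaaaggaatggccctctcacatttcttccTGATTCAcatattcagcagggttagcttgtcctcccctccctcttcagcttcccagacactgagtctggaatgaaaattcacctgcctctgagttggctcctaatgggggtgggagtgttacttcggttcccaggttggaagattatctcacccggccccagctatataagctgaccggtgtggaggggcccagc
CGA held the CRE letters at 2 places, MUC13 the AP-1 and the CRE letters at 1 place each, MCAM the CRE letters at 1 place, and MMP10 and ANKRD1 the AP-1 letters at 1 place each. S100P held none of the 3, and no C/EBP letters stood in any of the 6 windows. Over the 35116 promoters of the reference, windows of the same length held the C/EBP letters in 9.05%, the AP-1 letters in 6.57% and the CRE letters in 1.65%, and a match is a description of the letters, not a site shown to be bound.

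Genes that were on in 1 group and off in the other were counted without the test. An FPKM of at least 5 in all libraries of shCEBPB and below 0.1 in all libraries of A2780 was found for 114 genes, and the reverse for 180. Of the 114, 38 were on by the same limit in every shCON library, 33 were off in every one, and 43 lay between or varied. Of the 180 that were on in A2780, 18 were on in shCON, 50 off and 112 between. The first set included the collagen IV genes COL4A1 and COL4A2 and the glutathione transferases GSTM1, GSTM3 and MGST1. The second included ALDH1A1, the MMP genes above, PTPRC, the tight junction gene OCLN and the smooth muscle gene CNN1.

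The basal keratins KRT5, KRT14 and KRT6A were nearly absent from both groups. KRT5, a basal keratin, was at most 0.0416 FPKM in shCEBPB and listed at 0 in A2780 but had a mean of 1530.4 FPKM in shCON, and TP63, a master factor of squamous lineage, was at most 0.198 and 0.174 FPKM against 53.1. KRT14 and KRT6A were likewise below 1 FPKM in every library of both. Other members of the list were expressed. KRT17 lay at 135 to 353 FPKM, median 262, in shCEBPB, with a mean of 608 FPKM in shCON and at most 0.262 in A2780, and it has close copies between which reads could be split. KRT80, a type II keratin of stratified epithelia, was at 104 to 128 FPKM, median 120.3, in shCEBPB and at most 0.73 FPKM in A2780, with a mean of 23.9 in shCON. KRT16 had a mean of 2.52 FPKM in shCEBPB and was listed at 0 in A2780, and KRT10, a keratin of suprabasal cells, was present in both (21 to 36.4 FPKM, median 31.8, against 13.1 to 23.8 FPKM, median 19.9) with overlapping libraries and a log2 fold change of 0.58 that was -0.03 in the libraries numbered 1 to 3. These were the 4 tested of 14 basal and stratified keratins, 4 of them higher, and the list summed to between 269 and 518 FPKM in shCEBPB and between 14.2 and 25.4 in A2780. KRT16, KRT17 and KRT80 were below 1 FPKM throughout A2780, so that the filter fixed their direction. Of 22 squamous markers 7 were tested, 4 higher and 1 lower. SFN (14-3-3 sigma), an epithelial checkpoint protein, followed the order of KRT17, at means of 129, 1.19 and 1157 FPKM in shCEBPB, A2780 and shCON.

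Simple epithelial keratins set shCEBPB apart from A2780. KRT8 lay at 747 to 992 FPKM, median 889, against 5.26 to 6.66 FPKM, median 5.87, and its partner KRT18 514 to 586 FPKM, median 525, against 78.1 to 85.5 FPKM, median 81.3, and with KRT7 they made up the 3 members tested, all higher. KRT19, which shCON had at 1470.2 FPKM, was at most 0.0976 and 0.481 FPKM here. EPCAM and CDH1 (E-cadherin), defining markers of epithelial cells, were nearly absent from both, with means of 0.567 and 0.655 FPKM in shCEBPB and 1.2 and 0.028 in A2780, against 111 and 82.9 in shCON.

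Of 21 epithelial junction genes tested, 13 were higher and 7 lower in shCEBPB, with a median of 1.09. Rises were led by ESRP2, a splicing regulator of epithelia (20.5 against 0.113 FPKM), PPL (periplakin, 22.5 against 0.378) and ST14 (matriptase, 10.8 against 0.00771). The tight junction went the other way in part. CLDN1 (claudin 1) was at 1.43 to 2.73 FPKM, median 1.88, against 106 to 112 FPKM, median 109, OCLN (occludin) at most 0.0719 against 21.1 to 23.6 FPKM, median 22.3, and TJP3 had means of 0.529 and 15.6 FPKM.

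Ovarian markers were mostly higher in shCEBPB, 7 of 9 tested against 2 lower, with a median of 2.84. FOLR1, the folate receptor alpha that is abundant in serous ovarian cancer, lay at 837 to 967 FPKM, median 878, in shCEBPB and 10.8 to 14.8 FPKM, median 14, in A2780, against a mean of 1.2 in shCON. MSLN (mesothelin) was at 98.5 to 197 FPKM, median 162, against 2.72 to 3.74 FPKM, median 3.16. SPP1 (osteopontin) and PAX2, a Müllerian factor, were listed at 0 in all shCEBPB libraries and had means of 11.5 and 6.96 FPKM in A2780. The Müllerian factor PAX8 was below 1 FPKM as a mean in both (0.536 and 0.555), WT1 was at most 0.0978 and 0.0869 FPKM, and EMX2 was under 0.1 FPKM. Of the Müllerian factors PAX2 was thus on in A2780, at 6.41 to 7.58 FPKM, median 6.99.

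The mesenchymal markers did not move as a set, since 7 of 14 tested were higher and 7 lower. A2780 had more VIM (vimentin, 809 against 342 FPKM), CDH2 (N-cadherin, 55.1 to 61.8 FPKM, median 58.2, against 5.19 to 10.7 FPKM, median 7.16), TWIST1 (32.8 to 46 FPKM, median 41.1, against 2.26 to 5.1 FPKM, median 2.77) and ZEB1 (14.5 against 6.55). In shCEBPB, FBN1 (fibrillin 1, 36 against 0.0754 FPKM), FN1 (fibronectin, 6.98 against 0.524) and S100A4 (629 against 122) were higher. An antisense gene overlaps VIM, and SPARC and CDH11 were below 0.1 FPKM in every library of both.

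Markers of other cell types were checked in full. Of 14 immune markers 2 were tested: CD68, a lysosomal protein of many cells, was higher in shCEBPB (11.7 against 2.22 FPKM), and PTPRC (CD45) was at most 0.0144 FPKM in shCEBPB and 75.7 to 103 FPKM, median 83.5, in A2780. CD3E was listed at 0 in all 16 libraries and CD14 had a mean of 0.309 FPKM in A2780, so that PTPRC was the defining immune marker present there. The summed FPKM of the list were 12 to 15.3 in shCEBPB and 81.9 to 106 in A2780. Fibroblast markers summed to between 15.7 and 23.5 FPKM in shCEBPB and between 454 and 511 in A2780, and 7 of 9 tested were lower in shCEBPB and 1 higher. ACTA2 (smooth muscle actin) had means of 0.375 and 93.5 FPKM. DCN and LUM, small proteoglycans of fibroblasts, were at most 0.0551 FPKM and listed at 0 in shCEBPB against means of 9.59 and 6.35 in A2780, and COL1A2 was listed at 0 against 4.04, while COL1A1 did not pass (16.2 and 17.4 FPKM, log2 fold change -0.11, adjusted p = 0.21). PTPRC, DCN, LUM and COL1A2 were below 1 FPKM throughout shCEBPB, so that the filter fixed their direction. Whether other cells had a part in the levels of these markers was not tested. None of 9 endothelial markers was tested, PECAM1 and VWF had means of at most 0.103 FPKM in either group, and CDH5 had 1.13 FPKM in shCEBPB and 0.00164 in A2780. The endothelial sum was at most 1.54 and 0.286 FPKM. Neural and neuroendocrine markers were lower in 5 and higher in 2 of 7 tested, with the adhesion molecule L1CAM (108 against 8.74 FPKM) opposite to MAP2 and UCHL1.

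**Figure D3:**
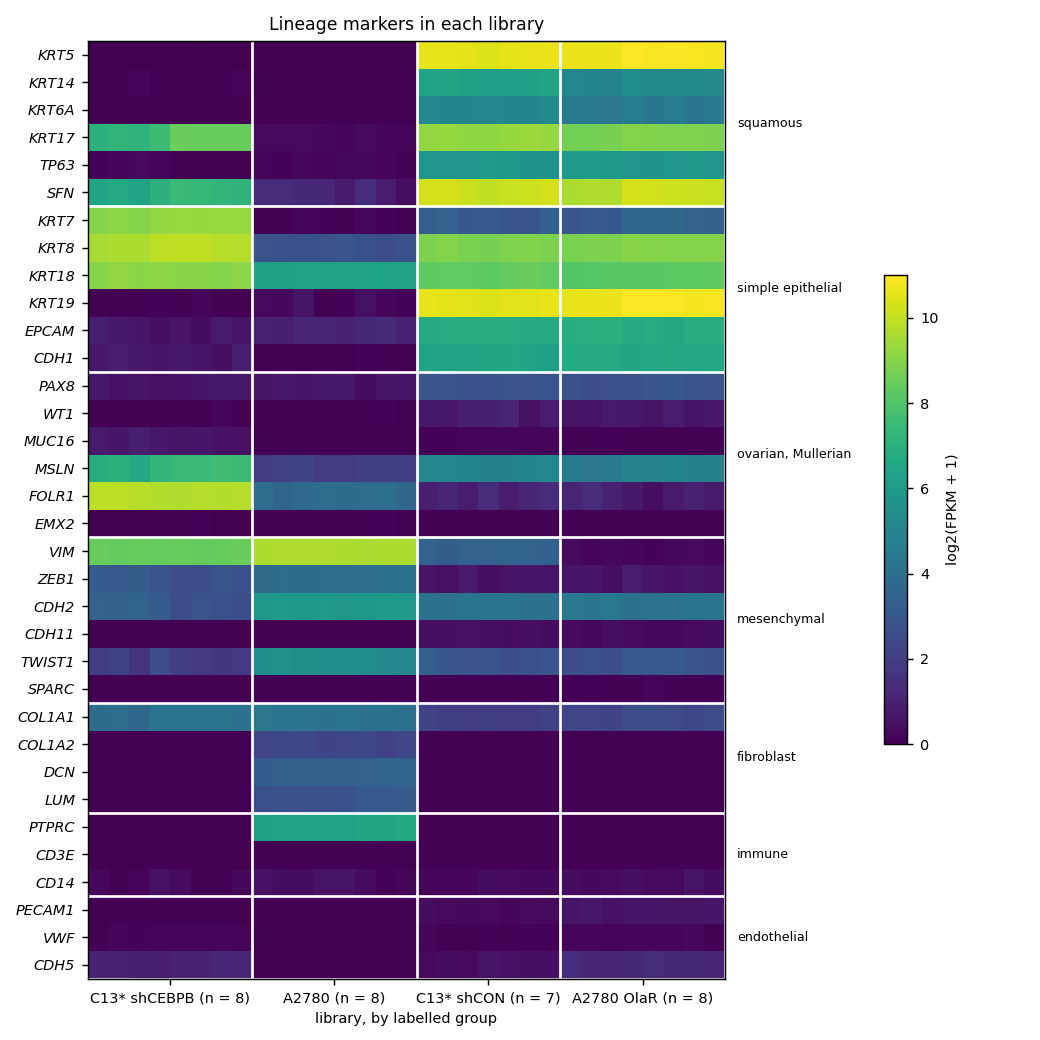
Level of 34 lineage markers (rows, colour from 0 to 11 in log2(FPKM + 1)) in each of the 31 libraries (columns, by labelled group). KRT7, KRT8, KRT18, MSLN and FOLR1 are bright in the 8 shCEBPB libraries and CDH2, TWIST1 and PTPRC in the 8 A2780 libraries, while VIM is bright in both. KRT5, KRT19, EPCAM and CDH1 are bright in the libraries labelled shCON and A2780 OlaR.

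Matrix genes were exchanged chain by chain. Of 18 fibrillar and other collagens tested, 6 were higher and 8 lower in shCEBPB, with log2 fold changes from -8.71 to 4.89. The balance rested on the libraries, with 5 higher and 11 lower in those numbered 1 to 3 and 9 higher and 8 lower in those numbered 4 to 8. Besides COL3A1 and COL5A2, COL6A2 was lower (1.62 against 32.5 FPKM), while COL7A1, the anchoring fibril collagen (70.4 against 1.34), COL9A3 (54.7 against 1.1) and COL15A1 (19.1 against 0.267) were higher. Basement membrane genes were higher in 10 of 16 and lower in 5. COL4A1 and COL4A2, which form the common collagen IV trimer and share a promoter region on chromosome 13, lay at 43.4 to 70.4 FPKM, median 58.7, and 60.1 to 119 FPKM, median 99, in shCEBPB and at most 0.0418 and 0.0548 FPKM in A2780. LAMA1 was on with them (13.6 FPKM against at most 0.0123). LAMB3, the beta chain of laminin 332, was also higher (24.6 against 1.19).

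Of 23 matrix proteases and inhibitors tested, 12 were higher and 10 lower, and 9 higher and 10 lower in the libraries numbered 1 to 3. TIMP3, a matrix-bound inhibitor, was at 20.0 to 26.2 FPKM, median 22.2, against at most 0.0749 FPKM, and MMP17 and TIMP4 were higher with it. Among 10 integrins, 6 higher and 4 lower, ITGAV, the shared alpha V chain, was the most lowered (12.5 to 18 FPKM, median 14.1, against 168 to 201 FPKM, median 183), ITGB1 was also lower (194 against 497 FPKM), and ITGB4, the hemidesmosome chain (10.4 against 1.3), and ITGB5 (73.2 against 17.3) were higher.

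Serpins were split, 5 of 10 higher and 4 lower, with the secreted SERPINF1 (PEDF) at 0.80 to 1.38 FPKM, median 1.01, against 212 to 229 FPKM, median 219.7, and SERPINB5 (maspin) at 5.9 FPKM against 0.00419. Of 11 S100 proteins 6 were higher and 4 lower, and S100A11 lay at 333 to 459 FPKM, median 391, against 3.12 to 5.65 FPKM, median 4.19, S100A6 at 376 against 25.7 FPKM as means.

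Of 24 thymosins, calponins and actin regulators 17 were lower and 7 higher, with a median of -0.72. TMSB4X, which binds actin monomers, lay at 573 FPKM as a mean in shCEBPB and 9589.8 in A2780, with no overlap and a log2 fold change of -4.07. CNN1 (calponin 1) was at most 0.0848 FPKM against 21.3 to 25.5 FPKM, median 23.6. ACTN4 and TAGLN2 were higher (260.3 against 47.3 and 584 against 136 FPKM). TMSB4X has many processed copies in the genome, which could take or add reads. Of 13 tubulins 9 were higher and 4 lower, with TUBA4A at 87.5 against 8.15 FPKM and TUBE1 at 4.43 against 34.5, and the main alpha and beta tubulins are close copies.

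Replication genes were mostly higher in shCEBPB than in A2780, which stood below all other groups. The list summed to 780 to 810 FPKM in A2780 and 1990 to 2164 in shCEBPB. It summed to 2041 to 2143 FPKM in shCON and 2235 to 2302 in A2780 OlaR. Of 38 tested, 33 were higher and 4 lower, 30 and 4 without overlap, with a median of 1.32, where 37.4% of all genes were higher. In the MCM helicase, MCM4 lay at 87.1 to 106 FPKM, median 92.2, against 10.9 to 13.1 FPKM, median 12.3, MCM7 198 to 295 FPKM, median 266, against 32.1 to 39.3 FPKM, median 36.3, and CDC45, which loads onto the same helicase, 40.5 to 47 FPKM, median 43.9, against 6.15 to 7.19 FPKM, median 6.72. ORC4, ORC2 and ORC6, subunits of the origin recognition complex, were lower (ORC4 3.96 against 9.42 FPKM, ORC2 12.2 against 24). The median lay between 1.28 and 1.5 under the other scalings and was 1.44 and 1.22 in the libraries numbered 1 to 3 and 4 to 8.

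Of 33 genes of G2/M and mitosis 23 were higher and 6 lower, with a median of 0.56. KIF20A (54.4 against 16.6 FPKM), the kinase AURKA (72.2 against 24.6) and CDK1 (143 against 49.9) led, and CDC20, the activator of the anaphase complex, was lower (107 against 170.0). Of 29 G1/S regulators 18 were higher and 9 lower, with a median of 0.39. CDKN2A, which encodes p16 and ARF, was at 154 to 270.5 FPKM, median 228, against 24.5 to 31.3 FPKM, median 25.4, CDKN2C (p18) 56.9 to 84.4 FPKM, median 76.1, against 8.21 to 11.3 FPKM, median 10.1, and the cyclin D partner CDK6 45.7 to 65.8 FPKM, median 50.7, against 7.01 to 8.18 FPKM, median 7.44. MYCL (0.325 against 7.47 FPKM), CDKN2D and E2F5 were the most lowered.

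The p53 targets were mostly lower in shCEBPB, with 21 of 27 lower and 5 higher and a median of -0.84. SESN2 (2.6 to 3.32 FPKM, median 3.12, against 40.8 to 45.1 FPKM, median 43.2), GADD45A (14.2 to 21.3 FPKM, median 18.8, against 156 to 190.2 FPKM, median 178) and GDF15 (4.91 to 9.37 FPKM, median 6.96, against 35.4 to 45.7 FPKM, median 39.9) were the most lowered, and all 3 are also known targets of the ATF4 pathway. DDB2, XPC and PLK3 were the members most raised, DDB2 from 22.4 to 49.1 FPKM. Of 15 BCL2 family genes, 5 were higher and 8 lower, with BCL2 at 0.464 against 3.58 FPKM and BID at 35.4 against 13.8.

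HR and Fanconi genes moved in both directions. Over all genes tested 37.4% were higher and 51.5% lower, with a median of -0.18. Of the 46 HR and Fanconi genes tested, 24 were higher and 16 lower in shCEBPB, with a median of 0.11, which was 0.47 after correction for GC content and length. With that correction 29 were higher and 16 lower, and in the libraries numbered 4 to 8, 22 were higher and 21 lower. FANCA (25.3 to 32.1 FPKM, median 29.6, against 6.94 to 8.32 FPKM, median 7.58), BLM (14.6 against 3.44 FPKM) and FANCI (41.4 against 11.3) led the rises. MUS81, a structure-specific nuclease, led the falls (11.9 to 17.4 FPKM, median 16.5, against 49.9 to 63.7 FPKM, median 60.1), with FAM175A (ABRAXAS1, 2.45 against 11.2) and RAD51B, whose means were 3.95 and 12.4. Of the HR genes that the study names, BRCA1 was higher (13 to 19.8 FPKM, median 15.2, against 9.23 to 11.4 FPKM, median 9.93, log2 fold change 0.58), while both groups stood below the shCON mean of 28.8 FPKM. BABAM1, a subunit of the BRCA1-A complex, was lower (46.3 to 64 FPKM, median 57.7, against 64.7 to 76 FPKM, median 72.3, log2 fold change -0.35). MCPH1 differed by 0.19 with overlapping libraries (adjusted p = 0.0237 in limma), and without A2780 replicate 3 the log2 fold change was 0.15 (adjusted p = 0.0552). BRIP1, the helicase bound to BRCA1, did not pass (3.67 to 5.84 FPKM, median 4.46, against 3.86 to 5.28 FPKM, median 4.45, adjusted p = 0.531, 95% interval of the log2 fold change -0.11 to 0.21), but its value rested on the processing, at 0.59 after correction for GC content and length and -0.14 in the libraries numbered 4 to 8.

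Among 17 PARP and PARG genes, 5 were higher and 10 lower, with a median of -0.42, while correction for GC content and length gave 7 higher and 8 lower with a median of -0.07. PARP1, the main target of olaparib, was higher, 123 to 159.6 FPKM, median 141, against 48.6 to 52.9 FPKM, median 51.8, a log2 fold change of 1.44, and its relative PARP2 was lower (22.9 against 38.7 FPKM). PARP12 had a mean of 9.56 FPKM and at most 0.0143 in A2780, and PARP14 was the most lowered (4.54 against 19.8).

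Of 39 excision and mismatch repair genes, 24 were higher and 13 lower with a median of 0.36, and FEN1, the flap endonuclease (106 to 139 FPKM, median 129, against 16.1 to 19 FPKM, median 17.9), and UNG, the uracil glycosylase (84 to 104 FPKM, median 95.9, against 14.2 to 18 FPKM, median 15.5), were among those raised. PMS1 and the glycosylases NEIL1 and NEIL3 were the most lowered, PMS1 from 16.8 to 5.16 FPKM. Checkpoint and fork protection genes were higher in 16 of 22 and lower in 5, among them CHEK1 (20.6 to 27.4 FPKM, median 23.8, against 7.3 to 8.6 FPKM, median 8.02), CHEK2 (29.4 against 10.5 FPKM) and TOPBP1 (32.2 against 12.9). End-joining genes were split, 9 of 18 higher and 7 lower, with PRKDC, the catalytic subunit of DNA-PK, at 78.6 against 37.2 FPKM. SLFN11, whose presence is linked to sensitivity to PARP inhibitors, was listed at 0 in all shCEBPB libraries and at most 0.0109 FPKM in A2780, and SLFN5 was the Schlafen gene tested (5.77 against 1.27 FPKM).

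Stress genes were lower in shCEBPB almost as a block, 26 of 30 against 4 higher, 25 and 1 without overlap, with a median of -1.36. CHAC1, a glutathione-degrading enzyme induced by ATF4, was at 0.581 to 1.22 FPKM, median 0.89, against 61.1 to 72.8 FPKM, median 68.6. ASNS, the asparagine synthetase, had means of 22.8 and 197 FPKM, behind DDIT3 and SESN2 in size. The one member without overlap that was higher was SLC7A5, a neutral amino acid carrier (259 to 395 FPKM, median 338, against 67.1 to 79.3 FPKM, median 73.9). Heat shock proteins were opposite, 12 of 17 higher and 3 lower with a median of 0.92. HSPB1 (HSP27) lay at 327 to 605 FPKM, median 539, against 3.33 to 6.35 FPKM, median 4.25, HSPB8 had means of 46 and 4.94 FPKM, and HSPA1A (23.4 against 0.466) shares nearly all of its sequence with HSPA1B.

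**Figure D4:**
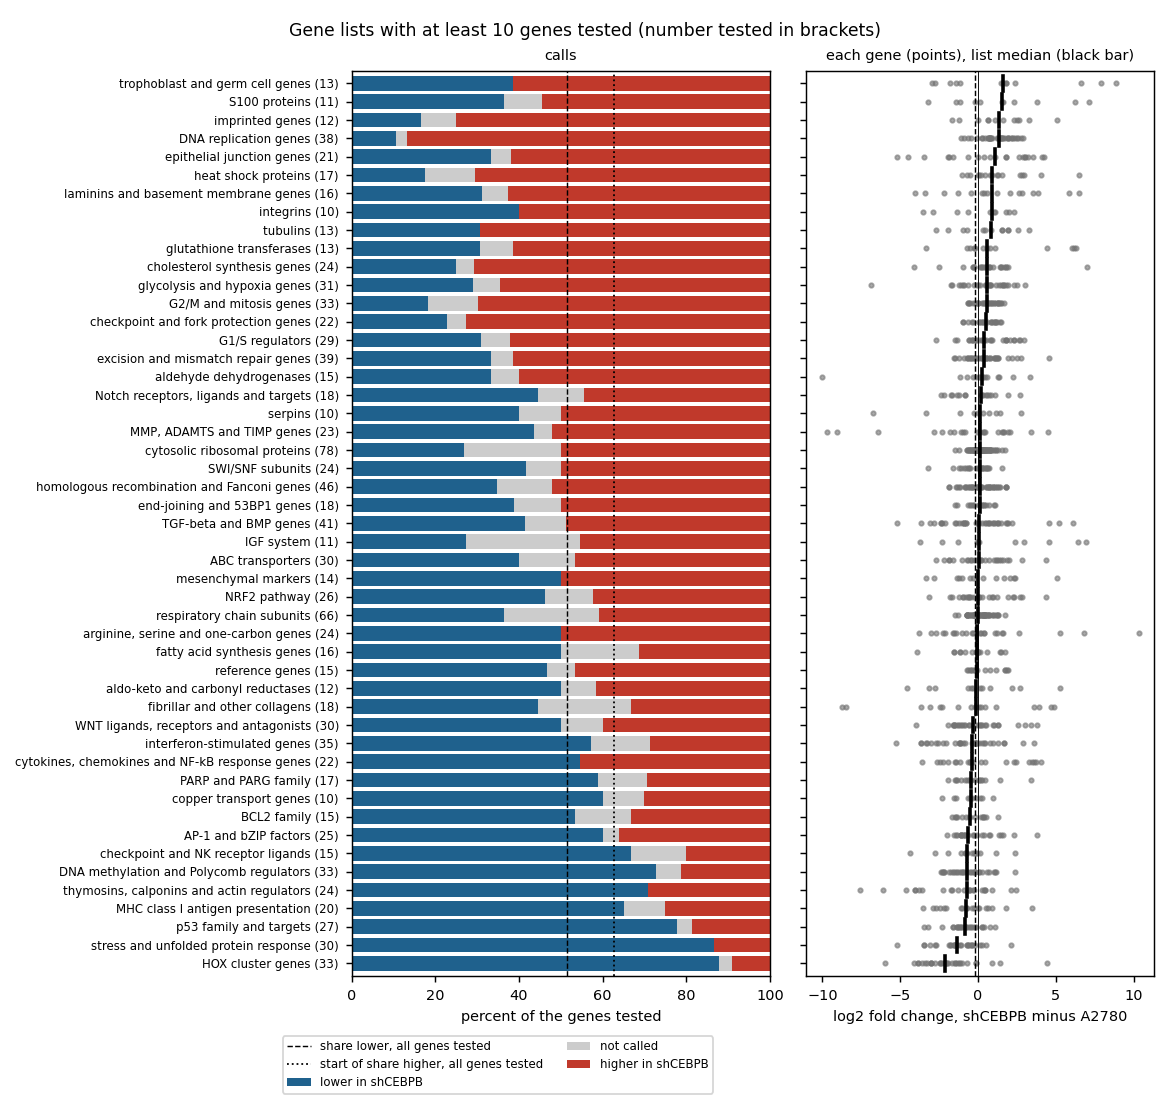
Left, share of the tested genes of each list (percent, x axis) that were lower, not called or higher in shCEBPB, with dashed and dotted lines at the shares over all genes tested. Right, log2 fold change of each gene (points) and the list median (black bar), with a dashed line at the median of all genes (-0.18). DNA replication has 33 of 38 genes higher, and the HOX cluster and stress lists have 29 of 33 and 26 of 30 lower. The HOX counts hold members, such as HOXB2 and HOXC11, whose direction the filter fixed.

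Drug-handling genes differed one by one. GSTP1, the glutathione transferase that the study names, was higher (799 to 1052 FPKM, median 958, against 403 to 445 FPKM, median 426, log2 fold change 1.13), and NQO1, a quinone reductase under NRF2, was lower (92.3 to 111 FPKM, median 101, against 142 to 159 FPKM, median 148, log2 fold change -0.55). Of 13 glutathione transferases 8 were higher and 4 lower. GSTM3, listed at 0 throughout A2780, lay at 70.9 to 86.8 FPKM, median 81.9, in shCEBPB, GSTM1 and MGST1 were at most 0.0481 and 0.0477 FPKM in A2780 against means of 66.1 and 74, and GSTA4 was lower (3.16 against 40.5). NRF2 genes were split, 11 of 26 higher and 12 lower. ABCC2, an export pump for glutathione conjugates, was at 33.5 to 53.5 FPKM, median 38.4, against 0.653 to 1.19 FPKM, median 0.946, and of 30 ABC transporters 14 were higher and 12 lower. SLC31A1 (CTR1), a copper importer that also carries cisplatin, was lower in shCEBPB (9.9 to 11.6 FPKM, median 10.6, against 55.2 to 57.1 FPKM, median 56.3, log2 fold change -2.31), and 6 of 10 copper transport genes were lower against 3 higher. MT1E, a metallothionein listed at 0 throughout A2780, lay at 36.3 to 61.9 FPKM, median 49.2, in shCEBPB, and 4 of 5 members tested were higher and 1 lower, genes that are close copies.

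Of 15 aldehyde dehydrogenases 9 were higher and 5, ALDH1A1 included, lower, with ALDH3A1 at 9.94 against 0.0754 FPKM. Aldo-keto and carbonyl reductases were higher in 5 of 12 and lower in 6. CBR1, a carbonyl reductase of anthracyclines, was off in A2780 (at most 0.0539 FPKM) and 29.4 to 44.1 FPKM, median 41.6, in shCEBPB, while AKR1E2 and AKR1C1 were lower (0.605 against 36.9 and 0.418 against 11.2 FPKM).

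In nitrogen and one-carbon metabolism 12 of 24 genes were higher and 12 lower. CPS1, which makes carbamoyl phosphate in the first step of the urea cycle, joined ASS1 (221 to 325 FPKM, median 241, against 0.913 to 1.49 FPKM, median 1.32), and NNMT, a methyltransferase of nicotinamide, was on (37.4 FPKM against at most 0.0376). The serine synthesis gene PSAT1 (37.6 to 55.1 FPKM, median 46.2, against 291 to 318 FPKM, median 306), CBS, the first enzyme of transsulphuration (15 to 21 FPKM, median 16.7, against 119 to 159 FPKM, median 142), and GLDC of the glycine cleavage system (0.0545 against 13.5 FPKM) were the most lowered.

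Cholesterol synthesis was higher in 17 of 24 genes and lower in 6, with a median of 0.60, with NSDHL, a sterol dehydrogenase of the pathway, at 29.2 against 7.64 FPKM. Glycolysis and hypoxia genes were higher in 20 of 31 and lower in 9. SLC16A3 (MCT4), which exports lactate, was at 91.8 to 232 FPKM, median 198, against 14.7 to 25.1 FPKM, median 19.4, whereas the glucose carrier SLC2A3 (GLUT3) was at 0.618 to 2.12 FPKM, median 1.2, against 253 to 282 FPKM, median 264. Fatty acid synthesis was split, 5 of 16 higher and 8 lower, with FASN at 88.7 against 26 FPKM and ELOVL6 at 0.561 against 22.1. Respiratory chain subunits had 27 of 66 higher and 24 lower, and cytosolic ribosomal proteins, many of which have processed copies, 39 of 78 higher and 21 lower, with medians of -0.03 and 0.12. Neither balance was fixed: quantile normalization gave 26 higher and 34 lower in the respiratory chain and 29 higher and 33 lower among ribosomal proteins, correction for GC content and length 35 higher and 19 lower in the former, and median-of-ratios factors 46 higher and 17 lower in the latter. Among 15 genes often used as references, 7 were higher and 7 lower, and PGK1 differed the most (496 against 128 FPKM).

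Interferon-stimulated genes were lower in 20 of 35 and higher in 10, with a median of -0.38, a share lower not far from the 51.5% over all genes tested. After correction for GC content and length 18 were lower and 15 higher. UBE2L6, the conjugating enzyme of ISG15, was listed at 0 in all shCEBPB libraries and lay at 32.8 to 40.9 FPKM, median 39, in A2780, and HERC6 and GBP1 were at most 0.0601 and 0.00785 FPKM against means of 12 and 11.6. IRF7, the factor that amplifies type I interferon, was higher (22.9 against 0.92 FPKM), with IFITM2. Of 20 genes of MHC class I presentation, 13 were lower and 5 higher, with a median of -0.74. HLA-B (31.2 to 37.2 FPKM, median 33.4, against 383 to 427 FPKM, median 399) and HLA-C (45.8 to 81.6 FPKM, median 67.7, against 419 to 537 FPKM, median 509) were lower, genes whose alleles share reads. PSMB8, an immunoproteasome subunit, was higher (13.9 against 0.355 FPKM). Among ligands of immune checkpoints and NK cells, 10 of 15 were lower and 3 higher, with ULBP1, a ligand of NKG2D, at 0.151 to 0.396 FPKM, median 0.285, against 24.1 to 26.8 FPKM, median 25.4.

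Acute-phase and inflammatory genes, among which known C/EBPβ targets are frequent, moved in both directions. Of 24 such targets listed, 7 were tested, 4 higher and 3 lower. IL6 was at 13.8 to 16.8 FPKM, median 16.3, in shCEBPB and at most 0.0497 FPKM in A2780, C3 (complement component 3) 101 to 135 FPKM, median 119, against 2.14 to 3.04 FPKM, median 2.81, and CFB had means of 8.41 and 0.678 FPKM, while MMP1, MMP3 and CP (ceruloplasmin, 0.0133 against 5.04) were lower. In the cytokine and NF-kB list 10 of 22 were higher and 12 lower, with ICAM1 (21 against 0.621 FPKM) and TNFAIP3 (32.2 against 1.66) raised and CXCL16 (3.19 against 50.3) and IL11 (0.84 against 9.99) lowered.

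HOX genes, which fix position along the body axis and whose set of active members is a stable mark of a cell's origin, were lower in 29 of 33 tested and higher in 3, with a median of -2.12, and 28 and 3 did not overlap. HOXB2 was at 0.0298 to 0.212 FPKM, median 0.131, against 66.1 to 74.7 FPKM, median 69.2, HOXA3 had means of 0.219 and 20.5 FPKM, and HOXB3 1.02 and 28.3. Those that were higher lie toward the 5′ end of their clusters: HOXC11 (18.7 to 22.4 FPKM, median 20.9, against at most 0.0265 FPKM), HOXC13 (21.5 against 7.35) and HOXA13 (5.73 against 2.55). HOXB2 was below 1 FPKM throughout shCEBPB and HOXC11 throughout A2780, so that the filter fixed their direction. How many other HOX genes were so placed was not counted. Of 53 clustered protocadherins 5 were tested, 5 of them lower, with PCDHGC3 at 0.00367 against 7.01 FPKM. PCDHGC3 was at most 0.0294 FPKM in shCEBPB, so that the filter fixed its direction, and all 53 summed to at most 4.83 FPKM there. Since their transcripts share 3′ exons within a cluster, reads could be split between members.

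Oncofetal genes were lower in 8 of 9 tested and higher in 0, with HMGA2, an architectural factor repressed by let-7, at 2.2 to 4.39 FPKM, median 3.22, against 34.8 to 41.2 FPKM, median 36, and LIN28B, which blocks let-7, listed at 0 in shCEBPB against a mean of 6.65 FPKM. Regulators of DNA methylation and Polycomb were lower in 24 of 33 and higher in 7, with a median of -0.71: TET1 was at most 0.0556 FPKM against 3.64 to 4.43 FPKM, median 4.13, the H3K27 demethylase KDM6A had means of 4.18 and 25.8, and UHRF1, which recruits DNMT1 to replicated DNA, was higher (60.2 against 10.8). SWI/SNF subunits were split, 12 of 24 higher and 10 lower, with SMARCD3 the widest (3.92 against 45.4). Of 12 imprinted genes 9 were higher and 2 lower, among them MEST (28.4 to 36.3 FPKM, median 33.6, against at most 0.0603 FPKM). Trophoblast and germ cell genes, with CGA and the phosphatases among them, were higher in 8 of 13 and lower in 5. Of 5 cancer-testis antigens tested 2 were higher and 2 lower, with CT83 listed at 0 in A2780 and at 17.8 to 23.2 FPKM, median 21, in shCEBPB, and MAGEA1, which has close copies, at 48.8 against 1.41 FPKM.

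In the IGF system 5 of 11 genes were higher and 3 lower. IGFBP7 and IGFBP4 were on (121 to 160.0 FPKM, median 145, against at most 0.298 FPKM, and 62.2 to 107 FPKM, median 91.3, against a listed 0), the adaptor IRS2 was higher (46.5 against 1.02), and IGFBP2 was listed at 0 in shCEBPB against a mean of 12.1 in A2780. EGFR was higher (53.7 to 91.2 FPKM, median 73.8, against 26 to 28.7 FPKM, median 28) and ERBB3 lower (1.06 to 2.19 FPKM, median 1.38, against 22.6 to 26.5 FPKM, median 24.2), and of 6 genes of this family and its ligands 1 was higher and 5 were lower. Of 41 TGF-β and BMP genes 20 were higher and 17 lower, with the ligand BMP2 (58.4 to 85.1 FPKM, median 71.9, against at most 0.135 FPKM) and the coreceptor ENG (52.9 against 0.449) raised and ID4, a target of BMP signalling (0.0108 against 36.5), lowered. Of 30 WNT genes 12 were higher and 15 lower, with WNT5A (12.4 against 0.258 FPKM) raised and the receptor FZD8 (1.98 against 45.4) lowered, and of 18 Notch genes 8 were higher and 8 lower, with 7 higher and 10 lower in the libraries numbered 1 to 3 and 10 higher and 8 lower in those numbered 4 to 8.

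Calls were not even along the genome. By GENCODE 44 on hg38, 12185 of the tested genes had a position. On chromosome 4, 342 of 438 genes were lower in shCEBPB and 74 higher, with a median log2 fold change of -0.96, the lowest of any chromosome, and on chromosome 13, 107 of 194 were higher and 65 lower, with a median of 0.29, the highest. The genes were then taken in 244 runs of 47 to 58 neighbours, whose medians had an interquartile range of -0.48 to 0.10. The lowest was the last run of chromosome 4, from TLL1 to FRG1 (165873237 to 189963202), where 46 of 48 genes were lower and 2 higher and the median was -1.97. The highest was the last run of chromosome 13, from DNAJC3 to CHAMP1 (95677139 to 114337626), with 42 of 48 genes higher, 4 lower and a median of 0.92, and COL4A1 and COL4A2 lie in it. At the end of the long arm of chromosome 9 the 2 last runs had medians of 0.86 each, and the first run of chromosome 5 a median of 0.84. ASS1 lies in the run of chromosome 9 before these. Whether the copy number of these regions differs was not measured.

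**Figure D5:**
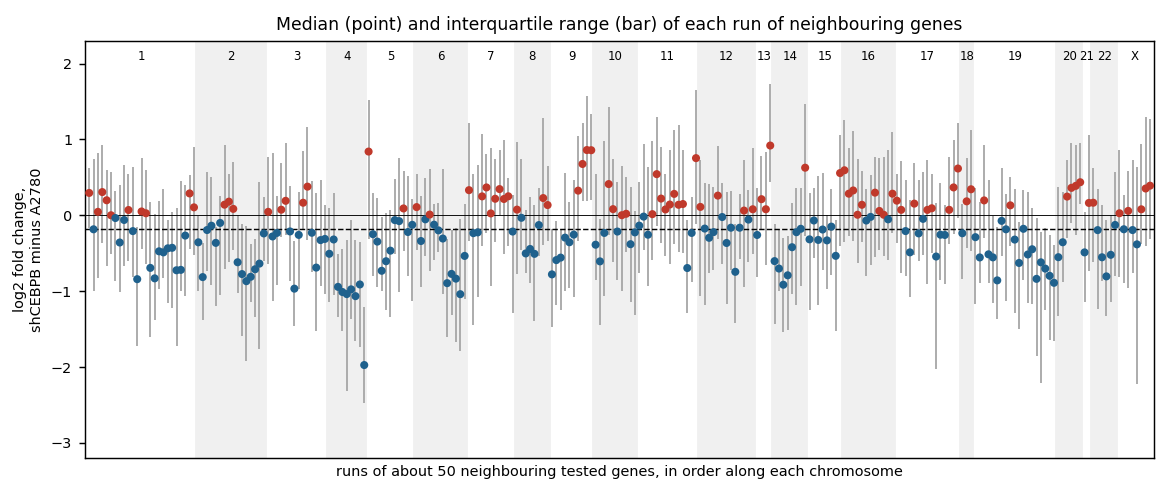
Log2 fold change, shCEBPB minus A2780 (y axis), of 244 runs of neighbouring tested genes in order along chromosomes 1 to 22 and X (x axis). Points are the run medians, bars the interquartile range of the genes, and the dashed line the median of all genes (-0.18), and every run of chromosome 4 lies below that line, down to -1.97 at its end.

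The test was not passed by 1357 genes, and 3932 genes (32.1%) had a 95% interval that lay within 1.5-fold of equality. Among the genes named above this was so for CEBPD, COL1A1 and BRIP1, which did not pass, and for CEBPZ, BABAM1, MCPH1 and PLK3, which did. FPKM are relative to the library, so a change common to all RNAs cannot be seen. In such bulk libraries fewer cells of a kind and less RNA per cell cannot be told apart.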

How the data were processed

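Poly(A) RNA of 31 cultures was sequenced by the authors as 150-bp read pairs, mapped to hg38 with TopHat and counted with HTSeq, and their DEGs came from edgeR. The authors deposited FPKM in 1 table, and the tool, gene annotation and strand setting behind the FPKM are not given in the sources used here. Groups came from the sample labels. Of 19221 genes (4 entries with 2 repeated symbols left out, 23 symbols turned into dates), those reaching 1 FPKM in 8 or more of the 16 libraries were tested on log2(FPKM + 1) with limma 3.58.1 in R 4.3.3 (empirical Bayes with trend, no covariate, adjusted p under 0.05). Steps of low FPKM were whole to within 0.05 for 86.0% of 20111 values (10% by chance), which gave relative but no absolute depth, so no counting interval is given. On simulated data with independent normal noise, 99.5% of 200 genes changed 2-fold were recovered among 12234, and 4.33% of the calls were false. The simulation held far fewer changed genes than these data and no sets of libraries within a group, so these rates need not hold here.

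The text names CEBPB, the 15 largest rises and falls without overlap, the genes the study names, up to 3 rises and falls of each list, members of lists of at most 8 genes, and defining markers. TMSB4X, LAMB3, ASNS, ALPPL2, PARP2 and KRT10 were added after their values were seen. Some genes that the rule names are not reported here. The members and lists were chosen with earlier results of these data known. Replicate numbers did not pair the libraries: the deviations of same-numbered libraries had a mean correlation of -0.251, and 0 of 8 correlated best with their own number. Alternatives covered the pseudocount, filter, scaling, GC content and length, the replicate block, library subsets, a rank-based fit and each library left out.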

Additional observations from a re-analysis of the deposited data

Results flagged for a closer look

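In groups of 8 libraries, a library was marked where its gap to the nearest other exceeded Dixon's limit, which chance alone does in about 1 of 20 groups. The text names 241 genes, each in both groups compared, so marks by chance alone are to be expected. A2780 replicate 8 was marked for 10 of the genes named. It was highest for ASNS (226 FPKM), GSTA4 (46.7), MMP1 (603), NQO1 (159) and TMSB4X (10938), and lowest for COL3A1 (317), JUNB (19.9), LAMB3 (0.796), NFE2L1 (108) and UBE2L6 (32.8). Other A2780 libraries stood apart for BMP2 (replicate 1, 0.135 FPKM), PRSS21 (replicate 1, 0.166), GPX1 (replicate 2, 1.09), CPS1 (replicate 5, 0.913), PAX8 (replicate 6, 0.306) and UCHL1 (replicate 7, 228). In shCEBPB, replicate 3 was lowest for BCL2 (0.257 FPKM) and FZD8 (1.56). Leaving these libraries out changed no call among the genes marked that were tested.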

How the results depend on the processing

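The count of 10877 changed genes stayed within 1.5 times under every alternative except a fold of at least 2, which left 4710 (1892 higher, 2818 lower). Leaving out each library in turn gave 10770 to 10988 (4527 to 4652 higher, 6240 to 6336 lower). With a replicate block the count was 10655, and 11070 with the block and a correction for GC content and length, although the numbers do not pair the libraries. The share of calls that were higher was 42.1% and at most 49.9% under another scaling. Named genes with smaller changes, such as BRCA1 and BABAM1, did not reach a fold of at least 2. In the settings other than that fold, 217 of 222 named genes tested kept call and direction, CEBPB among them, at -0.86 to -1.47. The exceptions were CEBPD, COL1A1, BRIP1, MCPH1 and KRT10, which was -0.0325 in the libraries numbered 1 to 3 (adjusted p 0.661). Median-of-ratios factors turned CEBPD to 0.0315 (adjusted p 0.651) and COL1A1 to 0.0018 (0.984). In the libraries numbered 4 to 8 BRIP1 was -0.14 (adjusted p 0.0401), COL1A1 0.10 (0.0618) and MCPH1 0.03 (0.686), by limma. BRIP1 was 0.40 after quantile normalization and 0.38 in the libraries numbered 1 to 3, both past the threshold. MCPH1 did not pass with a common sum of FPKM (0.15, adjusted p 0.0977) or with the replicate block (adjusted p 0.0638). Gene lists moved more. Under another scaling, a correction or either set of libraries, 33 of 64 lists had a median that moved by over 1.5 times or turned sign, and 17 did not keep the order of their higher and lower counts (ties included), among them collagens, matrix proteases, Notch, NRF2, WNT and cytokine genes, fatty acid synthesis, the respiratory chain and ribosomal proteins. After correction for GC content and length the median was -0.31 for AP-1 and related factors, -0.07 for PARP and PARG genes and -0.41 for regulators of DNA methylation and Polycomb, and quantile normalization put that of interferon-stimulated genes at -0.18. The causes were not tested. Absolute depth is unknown, which limits what a value near 0 FPKM shows.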
